A study of Mus musculus with 6 samples.

Results

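The tumour suppressor p53 and 9 of its target genes were followed in mouse neural stem cells (NSCs). The genes were chosen by name, as Trp53, Mdm2, Ccng1, Bax, Bbc3, Zmat3, Phlda3, Eda2r, Gdf15 and Perp, and all 10 were found among the 53379 genes of the deposited table. All NSCs were Tbl1xr1 flox/flox cells from E14.5 embryonic cortex that had been grown as neurospheres with bFGF and EGF. The control group was infected with a GFP lentivirus (3 libraries, replicates 1, 1_1 and 2). The other group received a lentivirus carrying Cre (3 libraries, replicates 2, 2_2 and 3), which the study used to make Tbl1xr1 knockout cells. Both groups thus started from the floxed allele and received a virus. They differed in Cre and in the Tbl1xr1 genotype that Cre was meant to produce. The infected cells had been sorted by GFP, the passage at harvest was not given in the labels, and whether the like-numbered replicates (1 with 1_1, 2 with 2_2) came from separate cultures is not given by the labels. The p-values therefore measure only the spread between these libraries, which may be technical. The comparison asks whether Cre, and the reduced division that the study describes in cells that received it, went with a change of p53 activity as far as mRNA levels show it.

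The p53 protein is a transcription factor that is kept low in unstressed cells because MDM2, itself the product of a p53 target gene, marks it for degradation. When DNA damage or other stress releases p53 from MDM2, it activates genes that stop the cell cycle, repair DNA or start cell death, and p21, the product of its target Cdkn1a, shuts down division genes through the DREAM repressor complex. In neural progenitors p53 is known to restrain self-renewal and to mediate the death of damaged cells. Since p53 is controlled largely at the protein level, the mRNA of its targets is the usual readout of its activity in RNA-seq, and neither p53 protein nor its phosphorylation was measured here.

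Depth ran from 7510615 to 11161497 reads on genes in the control libraries and from 11893230 to 14828100 in the libraries labelled Cre. The mRNA of the targeted gene went against the label, as Tbl1xr1 had 2522, 2190 and 2721 normalised counts in the 3 controls (replicates 1, 1_1 and 2) and 3774, 3463 and 2905 in the libraries labelled Cre (replicates 2, 2_2 and 3). The log2 fold change was 0.45 (SE 0.14) with an adjusted p of 0.0600 in limma, and it passed the threshold in DESeq2 (0.0398) and without Cre replicate 3 (0.0238). A count over the whole gene does not measure the floxed exon, so it neither shows nor excludes recombination, and every direction below is between libraries by their labels. All 10 stem cell markers were detected above the filter, with Prom1 close to it at 5 to 24 reads. Their summed level was 39200 to 43130 in control libraries against 38420 to 41100 in those labelled Cre, a sum to which Prom1 added little. Sox1 (log2 fold change -2.27) and Nes (-0.85) fell. Every library labelled Cre was below every control for both and for Vim (-0.34, adjusted p 0.105). The reverse held for Pax6 (0.24, adjusted p 0.295) and Slc1a3 (0.29, adjusted p 0.126). Sox2 (0.38, adjusted p 0.259) and Fabp7 (0.38, adjusted p 0.122) also had positive estimates, with overlapping groups. Sox2 was called higher without Cre replicate 2 (adjusted p 0.0272) and Fabp7 without Cre replicate 3 (adjusted p 0.0273). Of the 10 stem cell markers, 6 had positive and 4 had negative log2 fold changes. Several markers of glia differed between the groups. The summed level of 7 astrocyte markers ran from 3111 to 3411 in control libraries and from 5590 to 6568 in those labelled Cre, and 3 of 6 tested rose (S100b, Slc1a2 and Aqp4), while Gfap was under the filter. Aldh1l1 stood the other way, with 20, 13 and 11 reads in the controls and 13, 3 and 5 under the Cre label (log2 fold change -1.65, unadjusted p 0.00797), and was called lower without Cre replicate 2 (adjusted p 0.0233). The sum of 8 oligodendrocyte lineage markers ran from 12490 to 14400 in control libraries and from 17240 to 19640 in those labelled Cre. Olig1 and Olig2 made up nearly all of this sum. Of 6 tested, 3 rose (Olig2, Pdgfra and Cspg4), or 1 without control replicate 2. Olig1 was not called (log2 fold change 0.18, adjusted p 0.554), and its groups overlapped. Sox10, at 1 to 13 reads, and Mog, at 0 to 5, were under the filter, and Mbp had 4 to 30 reads. Beside the counts for both glial lists, 4.74% of all tested genes were called higher. Of 10 neuron markers, 6 were tested and none passed the threshold in limma, at an unadjusted p under 0.05, in edgeR or in DESeq2. Map2 made up nearly all of their summed level, at 9124 to 9312 in control libraries and 9903 to 11155 in those labelled Cre. Without Map2 the markers were low, with Stmn2, Slc17a6 and Neurod6 at 0 reads in every library. Dcx (33.2% of the control mean, under the filter) and Snap25 (78.0%) lay below every control. Tubb3 (115.8%) and Rbfox3 (107.3%) had higher means under the Cre label, with overlapping groups. Of the 6 tested neuron markers, 3 had positive and 3 had negative log2 fold changes. Of the markers of microglia 6 of 8, of endothelium 3 of 6 and of fibroblasts or pericytes 4 of 6 were at or under 3 reads in every library. Csf1r, listed for microglia, had 105 to 307 reads and overlapping groups, and Kdr, listed for endothelium, had 37, 16 and 12 reads in the controls and 10, 12 and 10 under the Cre label (log2 fold change -1.34, adjusted p 0.0677). Of these markers, those that rose, Sox1, Nes, Vim, Sox2, Olig1, Map2, Csf1r and Kdr were named by the rule given with the processing. The others were picked after the values were seen. The part of these markers in the values below was not tested.

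Levels are normalised counts, that is, reads divided by 1 size factor per library, and changes are log2 fold changes on log2(normalised count + 1), tested with limma over the 14840 genes with a mean of at least 10 and called at a Benjamini-Hochberg adjusted p under 0.05. Of the 10 genes, 9 passed this filter and Perp did not. None of the 9 rose and 2 fell, Trp53 and Gdf15. Among all tested genes 4.74% were called higher in the libraries labelled Cre and 5.22% were called lower. With no adjustment, at p under 0.05, the counts for the 9 genes were 0 higher and 3 lower. In edgeR they were 0 and 2, beside 4.97% and 5.03% of all tested genes, and in DESeq2 0 and 3, beside 5.89% and 5.94%. In limma without Cre replicate 2, 2 of the genes were called higher (Bax and Phlda3) and 3 lower, and 1 was called lower without control replicate 1, 1_1 or 2 or without Cre 2_2. The median log2 fold change of the 9 genes was -0.07, with 3 positive and 6 negative, against -0.001 over all tested genes. In 2 genes, again Trp53 and Gdf15, every library labelled Cre was below every control library, and in none was it the reverse, beside 15.5% and 14.7% of all tested genes. With fewer libraries in a group more genes separate. The number without overlap was 4 of 9 without control 1_1 and 6 of 9 without Cre 2, where 38.8% and 45.6% of all genes with a mean of at least 10 did not overlap.

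**Figure D1:**
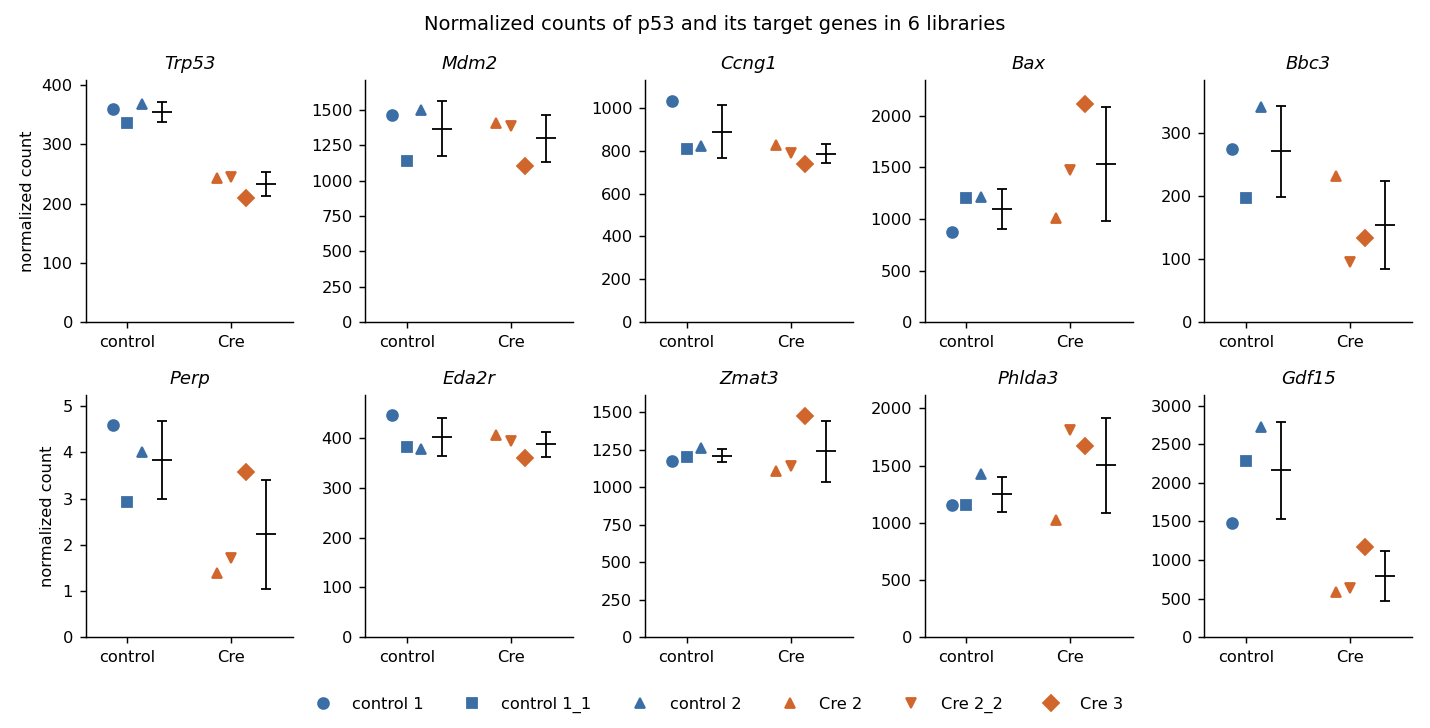
Normalised counts (y axis, from 0, with a scale of its own in each panel) of the 10 genes in the 3 control libraries (blue) and the 3 libraries labelled Cre (orange), with a marker shape per replicate and the mean and SD beside each group. Trp53 and Gdf15 are the genes in which the groups do not overlap among those past the filter, and Perp lies under 5 normalised counts in every library.

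Trp53 itself (chr11:69580348-69591873, plus strand, GRCm38.p6) had 359, 335 and 367 normalised counts in the control libraries, in the order of replicates 1, 1_1 and 2, and 244, 244 and 210 in the libraries labelled Cre, in the order 2, 2_2 and 3. The same order is kept for every gene below. The 3 libraries labelled Cre were below all 3 controls, and each group lay within a narrow range (354 ± 16.5 against 233 ± 19.99, mean ± SD, n = 3 each). The mean in the libraries labelled Cre was 65.8% of the control mean, a log2 fold change of -0.60 (SE 0.14, 95% interval -0.91 to -0.29, adjusted p 0.0217). In bulk RNA, fewer cells with the transcript and less transcript per cell cannot be told apart. The direction held in all 16 alternatives, with log2 fold changes from -0.64 to -0.53. The adjusted p passed the threshold in 11 of them, including edgeR (0.0230) and DESeq2 (0.0112). It rose to 0.107 without control replicate 1, 0.0613 without control 1_1, 0.0962 without control 2, 0.0553 without Cre replicate 2_2 and 0.0733 when control replicates 1 and 1_1 were averaged. Wrap53, the gene that starts from the opposite strand just upstream of Trp53 and whose span ends before that of Trp53 begins, had a log2 fold change of -0.13, with an adjusted p of 0.690. The processed pseudogene Trp53-ps had 1 read in 1 library and none in the others. Of the other family members, Trp73 had 0 reads in every library and Trp63 had 3 reads in Cre replicate 2 and 0 elsewhere, so neither was above 3 reads in any library.

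Mdm2 (chr10:117688875-117710758, minus strand), the ubiquitin ligase that closes the feedback loop on p53, had 1459, 1141 and 1498 normalised counts in the controls and 1404, 1383 and 1104 in the libraries labelled Cre. The groups overlapped over most of their range. The log2 fold change was -0.07 (95% interval -0.39 to 0.25, adjusted p 0.803), and it turned to 0.04 without Cre replicate 3. The ratio of Mdm2 to Trp53 in normalised counts was 4.07, 3.41 and 4.08 in the controls and 5.76, 5.66 and 5.27 in the libraries labelled Cre. The ratio was higher in 3 of 3 libraries labelled Cre (3.85 ± 0.386 against 5.56 ± 0.259, SD, n = 3 each), with a two-sided exact permutation p of 0.1, the smallest that 3 against 3 libraries allow. This ratio was chosen after the values were seen, when Trp53 was known to be lower and Mdm2 to overlap. It restates those values and is not a separate result.

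Ccng1 (chr11:40748552-40755309, minus strand), listed with Mdm2 as a feedback inhibitor of p53, encodes cyclin G1, one of the most regular p53 targets across tissues. It had 1031, 809 and 823 normalised counts in the controls and 826, 789 and 738 in the libraries labelled Cre, with groups that overlapped. Its log2 fold change was -0.17 (95% interval -0.46 to 0.12, adjusted p 0.461). Cdkn1a, the gene of the CDK inhibitor p21 and the classical arrest target of p53, had 3675, 3323 and 4126 in the controls and 2612, 2825 and 2683 in the libraries labelled Cre. All 3 libraries labelled Cre were below all 3 controls (3708 ± 402 against 2706 ± 108, SD, n = 3 each). The log2 fold change was -0.45 (SE 0.12, adjusted p 0.0370, edgeR 0.0407, DESeq2 0.0200), and it stayed between -0.53 and -0.37 in all 16 alternatives. The call was lost in 8 of them. These were no filter (0.0588), scaling to the total count (0.0523), averaged control replicates (0.0825), and leaving out control 1 (0.143), control 1_1 (0.0560), control 2 (0.154), Cre 2_2 (0.0954) or Cre 3 (0.0541).

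The death genes did not move together. Bax (chr7:45461695-45466903, minus strand), whose product opens the outer mitochondrial membrane, had 876, 1199 and 1211 normalised counts in the controls and 1014, 1477 and 2110 in the libraries labelled Cre. Replicates 2_2 and 3 labelled Cre were above every control, and replicate 2 lay within the control range. Bax had a log2 fold change of 0.44 (SE 0.23, 95% interval -0.07 to 0.94, adjusted p 0.264). Without Cre replicate 2 it was 0.70 with an adjusted p of 0.0150. Bbc3 (chr7:16308398-16318334, plus strand) encodes PUMA, a BH3-only protein that frees BAX from its inhibitors. It had 274, 197 and 341 in the controls and 233, 96.4 and 134 in the libraries labelled Cre, where again replicates 2_2 and 3 stood outside the control range, here below it, and replicate 2 inside. For Bbc3 the log2 fold change was -0.87 (SE 0.30, 95% interval -1.52 to -0.22, unadjusted p 0.0136, adjusted p 0.0913). Bbc3 passed the threshold in DESeq2 (0.0474), with Cre replicates 2 and 2_2 averaged (0.0383), and without Cre replicate 2 (log2 fold change -1.21, adjusted p 0.00398). The 2 genes thus had estimates of opposite sign, and the library labelled Cre 2 lay nearest to the controls in both.

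Eda2r (chrX:97333837-97377234, minus strand), a death receptor of the TNF receptor family, had 447, 382 and 377 normalised counts in the controls and 407, 395 and 360 in the libraries labelled Cre. The groups overlapped, and the log2 fold change was -0.05 (95% interval -0.35 to 0.25, adjusted p 0.850), turning to 0.03 without control replicate 1. In the RefSeq annotation the pseudogene Gm18111 lies within the span of Eda2r. Perp (chr10:18845071-18857073, plus strand), a membrane protein of desmosomes that p53 induces in dying cells, had 5, 2 and 3 reads in the controls and 2, 2 and 4 in the libraries labelled Cre. Its mean was 3.84 ± 0.843 and 2.23 ± 1.18 normalised counts (SD, n = 3 each), and no difference was detectable at this depth.

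The remaining targets act on RNA and on signalling. Zmat3 (chr3:32334792-32365665, minus strand) encodes an RNA-binding zinc finger protein that regulates splicing. It had 1174, 1202 and 1262 normalised counts in the controls and 1108, 1140 and 1477 in the libraries labelled Cre, of which 1 was above and 2 were below the controls. For Zmat3 the log2 fold change was 0.02 (95% interval -0.27 to 0.32, adjusted p 0.940), and it was -0.0006 without control replicate 1 and -0.11 without Cre replicate 3. The span of Zmat3 overlaps that of the lncRNA 4930429B21Rik by 177 bases in RefSeq, and whether the counting used strand was not stated. Phlda3 (chr1:135766085-135769134, plus strand), whose product competes with AKT for membrane lipids, had 1156, 1157 and 1427 in the controls and 1028, 1806 and 1672 in the libraries labelled Cre. As for Bax, replicates 2_2 and 3 labelled Cre were above the controls, whereas replicate 2 was below them. The estimate for Phlda3 was 0.23 on the log2 scale (SE 0.19, 95% interval -0.19 to 0.66, adjusted p 0.497), and 0.49 with an adjusted p of 0.0229 without Cre replicate 2.

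Gdf15 (chr8:70629393-70632470, minus strand), a secreted cytokine of the TGF-beta family that both p53 and the ATF4 and CHOP stress factors induce, showed the largest change among the 10 genes. It had 1479, 2286 and 2723 normalised counts in the controls, and 580, 642 and 1168 in the libraries labelled Cre. The groups did not overlap, although both were spread widely (2163 ± 631 against 797 ± 323, SD, n = 3 each). The mean in the libraries labelled Cre was 36.8% of the control mean, a log2 fold change of -1.47 (SE 0.27, 95% interval -2.05 to -0.88, adjusted p 0.00635, edgeR 0.00735, DESeq2 1.00e-06). Gdf15 passed the threshold in all 16 alternatives, with log2 fold changes from -1.78 to -1.27 and a highest adjusted p of 0.0449, which was reached without control replicate 2.

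**Figure D2:**
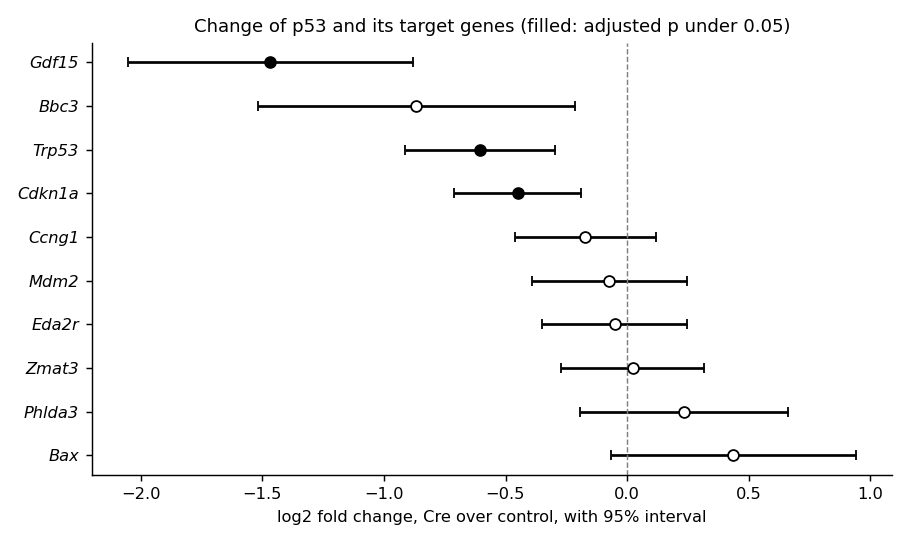
Log2 fold change (x axis, libraries labelled Cre over control) with its 95% interval from limma for the 9 tested genes and Cdkn1a, one gene per row, with filled points for an adjusted p under 0.05. Gdf15, Trp53 and Cdkn1a are filled and lie left of 0, the interval of Bbc3 also lies left of 0 without passing the adjusted threshold, and the other 6 intervals cross 0.

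Since levels differ with transcript length, the genes were also ordered by normalised counts per kilobase of exon. In control, Gdf15 was highest (1168 ± 341 per kilobase, SD, n = 3), followed by Bax (818 ± 142) and Phlda3 (799.7 ± 100.1), and the ranges of these neighbours overlapped. Mdm2 (269 ± 38.6) and Ccng1 (253 ± 35.5) came next with overlapping ranges. Below them Zmat3 (150 ± 5.54) and Bbc3 (135 ± 35.9) overlapped each other, Trp53 (87.4 ± 4.09) and Eda2r (68.2 ± 6.61) did not, and Perp was last (2.02 ± 0.444). In the libraries labelled Cre the order of levels began with Bax (1146 ± 411) and Phlda3 (963 ± 267), and Gdf15 followed at 430 ± 175 per kilobase, with a range that did not reach that of Phlda3. At the lower end Trp53 (57.5 ± 4.94) came below Eda2r (65.7 ± 4.12), again with ranges that did not overlap.

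The promoters were read from RefSeq (GRCm38.p6) as windows from 250 bases before to 50 bases after each annotated start, which gave 11 windows for 8 of the 10 genes, with none for Perp and Zmat3. Both strands were searched for the p53 consensus half-site, for a pair of half-sites, and for the core pair CATGNNNNNNCATG. No window of these genes held the pair of half-sites or the core pair, against 0.0731% and 0.712% of all 32851 promoter windows. For 11 windows, 0 is near those shares. Only exact matches inside the windows were counted, so sites elsewhere in the genes or with a mismatch were not looked for. A single half-site was in 4 of 11 windows (36.4%), against 8.36% of all windows. The 50 bases around each of the 4 are shown because the genes that carry them include p53 and its inhibitor, with the half-site in capitals and its first base 201 bases before the start for Bax, 186 for Mdm2, 185 for Ccng1 and 75 for Trp53. A match is a description of the letters and not a binding site, and binding was not measured here.
Bax, chr7:45467070-45467119, minus strand: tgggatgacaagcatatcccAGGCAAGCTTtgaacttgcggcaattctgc
Mdm2, chr10:117710915-117710964, minus strand: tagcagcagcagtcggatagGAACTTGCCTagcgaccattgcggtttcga
Ccng1, chr11:40755442-40755491, minus strand: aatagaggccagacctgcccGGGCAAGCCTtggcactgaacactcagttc
Trp53, chr11:69580264-69580313, plus strand: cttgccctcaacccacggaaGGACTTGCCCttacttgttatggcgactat
Of the 4 genes with a half-site in this window, Trp53 fell and Bax, Mdm2 and Ccng1 did not pass the test. The window of Trp53 also covers sequence next to the divergent gene Wrap53. Gdf15, with the largest change, had no half-site in either of its 2 windows.

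Regulators of p53 were described as a list of 20 genes, of which 18 were tested. None rose in limma (0 also at an unadjusted p under 0.05, in edgeR and in DESeq2) and 1 fell, a share near the 5.22% called lower among all tested genes, and their median log2 fold change was 0.02. The gene that fell was Chek1, the checkpoint kinase that acts on stalled replication forks, with 495, 433 and 520 normalised counts in the controls and 371, 304 and 226 in the libraries labelled Cre. Its groups did not overlap, and its log2 fold change was -0.71 (SE 0.18, adjusted p 0.0321). No regulator was called lower without control replicate 1, 1_1 or 2, without Cre replicate 2_2 or with control replicates 1 and 1_1 averaged, and 2 were without Cre replicate 2. Without Cre replicate 3 the regulator called lower was Kat5 (log2 fold change -0.59, adjusted p 0.0288) and not Chek1. Chek1 passed the threshold in 10 of the 16 alternatives. Usp7, the deubiquitinase of MDM2 and p53, had the highest level of the regulators that did not pass, with 2075, 2134 and 2028 in the controls, 1925, 2045 and 1792 in the libraries labelled Cre, and overlapping groups (log2 fold change -0.12, adjusted p 0.560). Mdm2 had the next highest level. Mdm4, the partner of MDM2, stood at 0.09 on the log2 scale (adjusted p 0.745), and Cdkn2a, which encodes the MDM2 inhibitor ARF beside p16, had 0.20 (adjusted p 0.430). Mdm4 and Cdkn2a were picked for their roles after the values were seen.

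Other p53 targets were taken as 3 lists with 45 genes, of which 38 were tested. In limma 0 rose and 4 fell (Cdkn1a, Plk3, Trp53i11 and Plxnb2), with a median log2 fold change of -0.06 and 16 positive and 22 negative estimates. At an unadjusted p under 0.05 there were 2 higher and 9 lower, and both edgeR and DESeq2 gave 1 higher and 4 lower. Of these 38 genes, 1 had all libraries labelled Cre above all controls and 10 had them below, beside 14.7% and 15.5% of all tested genes, and 4.74% and 5.22% of all tested genes were called higher and lower in limma. The count of 4 lower fell to 0 without control replicate 1, without control 2 or without Cre 2_2, to 1 without control 1_1 or with control replicates 1 and 1_1 averaged, and to 2 with no filter. In arrest and repair (14 tested, median -0.12), Plk3, a stress-activated polo-like kinase, fell beside Cdkn1a. It had 76.2, 71.7 and 69.3 normalised counts in the controls and 38.8, 33.6 and 43.9 in the libraries labelled Cre (log2 fold change -0.89, SE 0.23, adjusted p 0.0353), with groups that did not overlap. The most highly expressed of those that did not pass were Sesn2, a stress-induced regulator of mTORC1 (0.04, adjusted p 0.918), and Ercc5, a nuclease of nucleotide excision repair (-0.01, adjusted p 0.966).

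In the death list (11 tested, median -0.17), Trp53i11 fell, with 2976, 2535 and 3047 in the controls and 2110, 1594 and 1449 in the libraries labelled Cre (log2 fold change -0.75, SE 0.15, adjusted p 0.0110). Its groups did not overlap. Trp53inp1, a p53 cofactor in stress, stood at 0.17 on the log2 scale (adjusted p 0.448), and Ei24, an endoplasmic reticulum protein, had 0.03 (adjusted p 0.945). In metabolism and signalling (13 tested, median 0.04), Plxnb2, a semaphorin receptor, fell from 1113, 1033 and 1028 in the controls to 770, 624 and 756 in the libraries labelled Cre (log2 fold change -0.57, SE 0.13, adjusted p 0.0171), again without overlap. Ccnd2, the cyclin D of neural progenitors and the most abundant gene of the list, had 37033 ± 737 in control libraries against 39230 ± 6618 in those labelled Cre (log2 fold change 0.07, adjusted p 0.837), and Rap2b had -0.03 (adjusted p 0.887). The single target that edgeR and DESeq2 called higher was Cd82, a tetraspanin, named after its values were seen. It had 21.1, 30.7 and 26.7 in the controls and 33.2, 84.4 and 88.6 in the libraries labelled Cre, with no overlap (log2 fold change 1.25, SE 0.38, adjusted p 0.0583, edgeR 0.0441, DESeq2 0.00961).

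**Figure D3:**
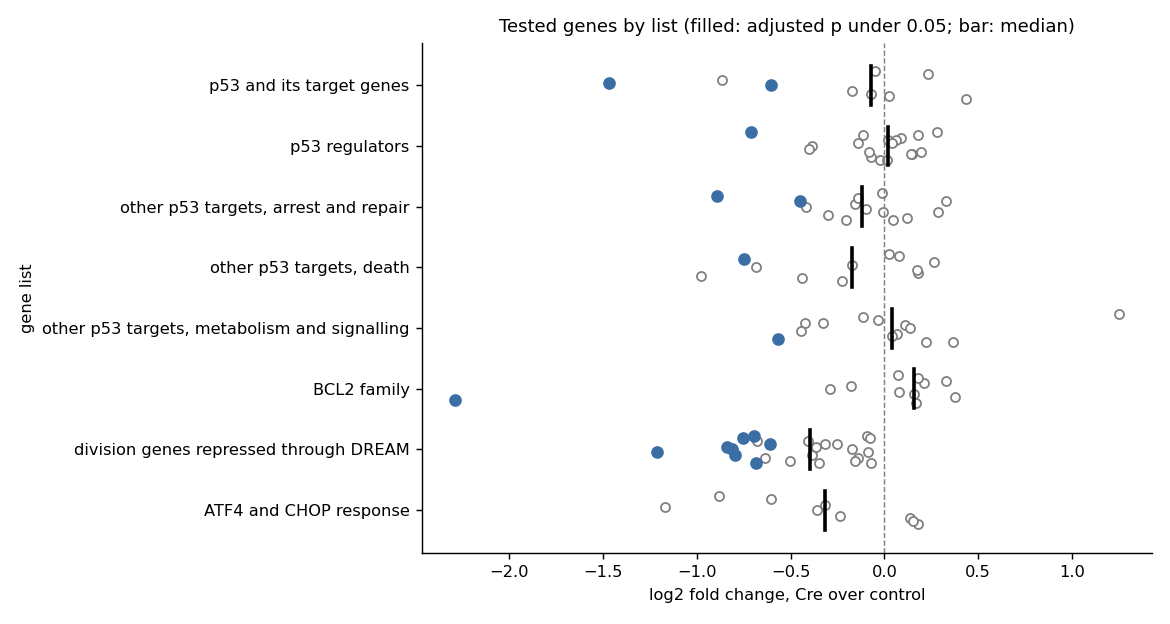
Log2 fold change (x axis, libraries labelled Cre over control) of each tested gene in 8 gene lists (rows), with filled points for an adjusted p under 0.05 in limma and a bar at the list's median. All 24 division genes lie left of 0 with a median of -0.40, whereas the p53 regulators and the target lists lie on both sides of 0.

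The BCL2 family, which holds the partners and opponents of BAX and PUMA, had 11 of 14 genes tested, with a median log2 fold change of 0.16. None rose in limma, and none did at an unadjusted p under 0.05, in edgeR or in DESeq2. In limma 1 of the 11 fell, beside 4.74% called higher and 5.22% called lower among all tested genes. Called higher were Mcl1 without Cre replicate 3 (adjusted p 0.0442) and Bmf with no filter (adjusted p 0.0406). Hrk, a BH3-only protein of neurons, fell from 19.3, 36.6 and 33.3 normalised counts to 10.4, 1.72 and 6.27 (log2 fold change -2.29, SE 0.56, adjusted p 0.0267). Its groups did not overlap, its level was low, and no gene of the family was called lower without control replicate 1, 1_1 or 2, without Cre replicate 2_2 or with control replicates 1 and 1_1 averaged. Bad and Bak1, the most highly expressed members that did not pass, had log2 fold changes of 0.17 (adjusted p 0.563) and 0.21 (adjusted p 0.577). Bak1, the second pore-forming protein beside BAX, had 848, 1000.55 and 1144 in the controls and 815, 1185 and 1554 in the libraries labelled Cre, with replicate 2 the lowest of the libraries labelled Cre as for Bax.

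Division genes that the p53, p21 and DREAM route represses were described as a list of 24, all of them tested. Of these, 0 rose and 8 fell, and all 24 had negative log2 fold changes with a median of -0.40. At an unadjusted p under 0.05 there were 0 higher and 15 lower, edgeR gave 0 and 8, and DESeq2 0 and 9. In 14 genes every library labelled Cre was below every control, where 15.5% of all tested genes were. Of all tested genes 5.22% were called lower. Those that fell were E2f1, the E2F factor of the G1 to S transition (-1.21, adjusted p 0.00144), the replicative helicase genes Mcm5 (-0.84, 0.00138), Mcm3 (-0.80, 0.00180), Mcm2 (-0.61, 0.0120), Mcm7 (-0.76, 0.0371) and Mcm4 (-0.69, 0.0375), the ribonucleotide reductase gene Rrm2 (-0.68, 0.0119) and Cdc20, an activator of the anaphase-promoting complex (-0.81, 0.00666). Top2a and Plk1, the most abundant genes that did not pass, had log2 fold changes of -0.25 (adjusted p 0.258) and -0.41 (adjusted p 0.0849), each with groups that did not overlap. The count of 8 was 4 without control replicate 1 or control 2, 5 without Cre 2_2 or with control replicates 1 and 1_1 averaged, and 14 without Cre 2. Any part of Cdkn1a or p53 in the level of the division genes was not tested.

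Because Gdf15 is also induced by ATF4 and CHOP, 10 genes of that response were compared, of which 9 were tested. In limma 0 rose and 0 fell, with 0 higher and 1 lower at an unadjusted p under 0.05 and none called in edgeR or DESeq2. Among all tested genes 4.74% were called higher and 5.22% lower in limma, so 0 calls among 9 genes is near those shares. In none did the groups separate, beside 14.7% of all tested genes higher and 15.5% lower, and the median log2 fold change was -0.32. Atf4 had 9435, 14432 and 14187 normalised counts in the controls and 9365, 7583 and 16656 in the libraries labelled Cre (log2 fold change -0.24, adjusted p 0.626), so each group spanned most of the range of the other. Ddit4, a stress-induced inhibitor of mTORC1, had 4150, 4128 and 6083 and then 5157, 1852 and 3106 (log2 fold change -0.60, adjusted p 0.230). Without Cre replicate 2, 2 of the 9 were called lower. The part of this response in the level of Gdf15 was not tested.

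**Figure D4:**
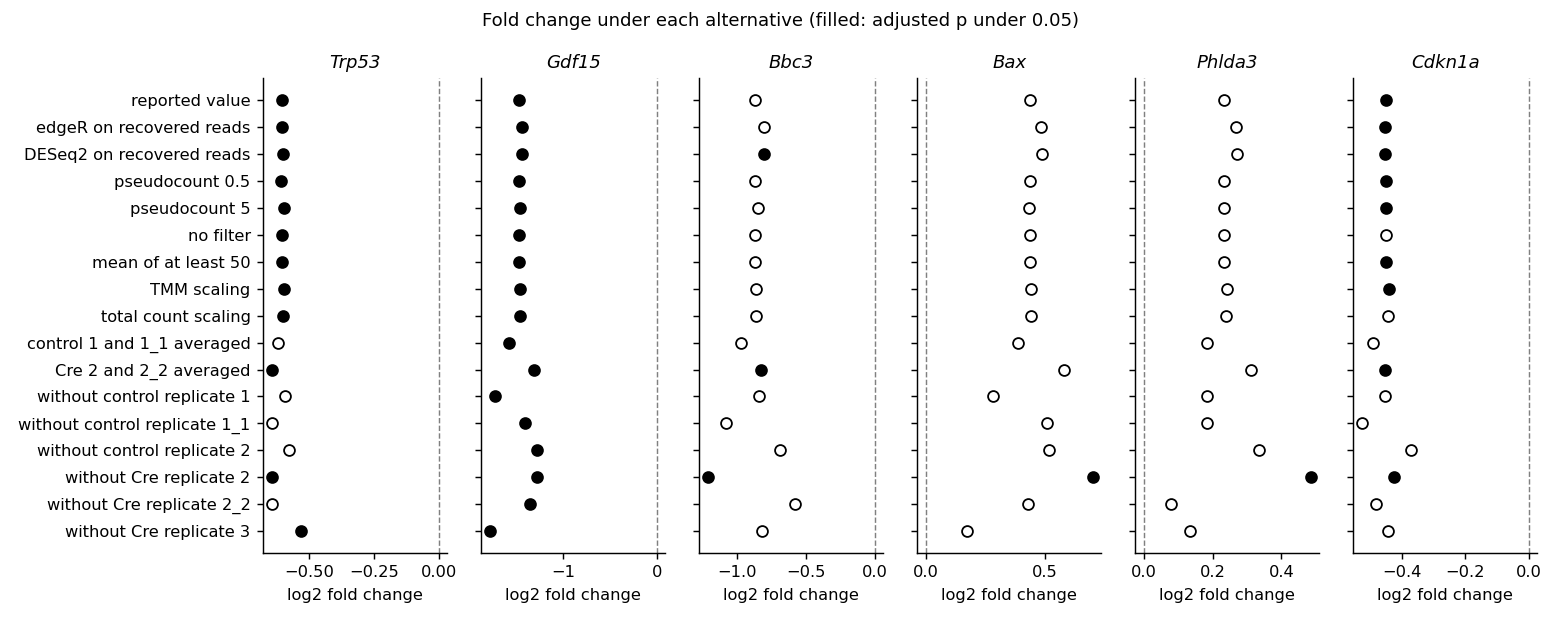
Log2 fold change (x axis, with a scale of its own in each panel) of 5 of the genes and Cdkn1a as reported and under 16 alternative settings (rows), with filled points for an adjusted p under 0.05. Gdf15 is filled in every row, Trp53 in 11 of the 16 alternatives and Cdkn1a in 8, and Bax and Phlda3 are filled only without Cre replicate 2.

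Finally, the genes were compared among themselves across libraries. After the group means were removed, the 36 pairs among the 9 tested genes had Pearson r from -0.945 (Eda2r and Gdf15) to 0.971 (Ccng1 and Eda2r) with a median of -0.124, and 16 of the 36 were positive. Trp53 and Mdm2 deviated together (r = 0.935), as did Bax with Gdf15 (0.910) and with Zmat3 (0.862), while Trp53 and Bax deviated in opposite directions (-0.725). These are descriptions over 6 libraries that share depth and normalisation between the genes. Among 11135 genes with a mean of at least 50, the pattern most like that of Trp53 over the 6 libraries was that of Rpsa-ps10 (r = 0.9985), a ribosomal protein pseudogene whose reads may come from its parent gene, Prkce (0.9959) and Cxcr4 (0.9952). For Mdm2 it was that of Aig1 (0.9858), Yod1 (0.9854) and B930036N10Rik (0.9847).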

How the data were processed

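RNA was extracted with Trizol, libraries were made with the TruSeq RNA v2 kit, and the submitters' processing notes name STAR 2.7, mm10 and DESeq2, while the methods name TopHat with mm9 and mm10. The read counter, annotation and use of strand were not given in the sources used here. The authors deposited normalised counts, a signal per gene and library obtained by dividing reads by 1 size factor per library. Their fold changes, test statistics and p-values stand in the same table and were not used. From the lowest values, 100% of entries came out as whole reads to within 0.1 read, which gave the depths and the reads for edgeR 4.0.16 and DESeq2 1.42.0. Tests used limma 3.58.1 (lmFit, eBayes with trend) in R 4.3.3, on log2(normalised count + 1) over genes with a mean of at least 10, adjusted by Benjamini-Hochberg with a threshold of 0.05, and were tested on simulated data. One gene with a missing value was left out.

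All 10 genes, Tbl1xr1, Cdkn1a and genes overlapping or next to these were named, with, of each list, up to 6 called genes of smallest adjusted p, up to 2 others of highest mean, and the 3 genes most like Trp53, Mdm2 and Gdf15, of which those for Gdf15 are not reported here. The remaining called division genes are named as well. Genes and lists were chosen with earlier results of these data known. Exon lengths came from GENCODE M1 and positions and promoters from RefSeq (GRCm38.p6). Alternatives were edgeR, DESeq2, pseudocounts of 0.5 and 5, no filter, a mean of at least 50, TMM or total count scaling, averaging replicates 1 and 1_1 or 2 and 2_2, an adjusted p under 0.1, and leaving out each library.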

Additional observations from a re-analysis of the deposited data

How the results depend on the processing

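No paired analysis was possible because the groups share only replicate number 2. Of the p53 set, 2 genes were called lower, 1 with control replicates 1 and 1_1 averaged, and 1 to 3 when 1 library was left out. Called higher were 0, and 0 to 2 when 1 library was left out, with 2 (Bax and Phlda3) without Cre replicate 2. The number of genes whose groups did not overlap was 2 of 9 (30.3% of all genes with a mean of at least 10), 5 with Cre replicates 2 and 2_2 averaged (41.5%), and 2 to 6 when 1 library was left out (36.5% to 45.6%), since fewer libraries separate more genes. Of the other p53 targets, 0 were called higher, 1 in edgeR, in DESeq2, with Cre replicates 2 and 2_2 averaged and at an adjusted p under 0.1, and 0 to 1 when 1 library was left out. Called lower were 4, 2 with no filter, 1 with control replicates 1 and 1_1 averaged, and 0 to 5 when 1 library was left out. Over the libraries left out, log2 fold changes that changed sign ran from -0.20 to 0.039 for Mdm2, from -0.095 to 0.027 for Eda2r and from -0.11 to 0.10 for Zmat3. The cause of these changes was not tested. Other scalings moved the median of all tested genes by at most 0.012 on the log2 scale. Depth limits Perp, at 2 to 5 reads per library.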

Other observations

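Bik and Bmf, BH3-only genes of the BCL2 family, were under the filter and were picked after their values were seen. Bik had 12, 3 and 6 reads in control replicates 1, 1_1 and 2 and 0 reads in the 3 libraries labelled Cre. Bmf had 1, 1 and 0 reads in the controls and 14, 11 and 6 in the libraries labelled Cre replicates 2, 2_2 and 3. In limma with no filter, Bik was called lower (adjusted p 0.00624) and Bmf higher (adjusted p 0.0406).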
